A study of Drosophila melanogaster with 32 samples.

Results

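The unfolded protein response is described here through 8 genes named for their roles in it: Xbp1, Ire1, PEK, crc, Hsc70-3, Gp93, Ero1L and Pdi. They were chosen by name and function, with earlier results of these data known. Of the 8, 7 were matched to a gene in the count table by the annotation, out of 17737 genes listed and 15364 with at least 1 count. Pdi was not matched and is not analysed here. The 7 genes passed the filter on low counts in every comparison, with between 1124 and 42566 counts per sample.

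The data are RNA-Seq counts of 32 samples of Drosophila melanogaster, in which 8 mated females were pooled and used whole. Smurfs are flies in which a blue food dye has left the gut and coloured the body, and non-Smurfs are flies of the same populations, fed the same dye, in which it stays in the gut. There were 4 Smurf and 4 non-Smurf samples at 20 days of age, 6 and 6 at 30 days and 6 and 6 at 40 days. Smurfs labelled 5 hours or 1 day were collected that long after the earlier Smurfs had been removed. These labels are therefore upper limits of the time since turning blue. Mixed samples, named with M, were taken at an unknown time after turning blue. Non-Smurfs were sampled alongside. Every group, controls included, was of the Drs-GFP line, which carries a GFP reporter of the antimicrobial peptide gene Drosomycin, and every fly had eaten the dye FD&C blue #1. No sample of 20 days was taken at 5 hours, each group held 1 mixed sample, and the labels give 32 days for both mixed samples that are grouped with 30 days. Nothing in the labels separates the cultures that the samples of one group came from, so the p-values measure the spread between these pools.

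The unfolded protein response raises the folding capacity of the endoplasmic reticulum (ER) when misfolded proteins build up in its lumen. Sensors in the ER membrane start it. Ire1 splices the Xbp1 mRNA so that an active transcription factor is made, PEK phosphorylates the initiation factor eIF2 alpha, which slows most translation and favours that of crc, the fly ATF4, and Atf6 is cut into a transcription factor. Their targets include the lumenal chaperones Hsc70-3 and Gp93 and the oxidase Ero1L, and in the fly intestine the response is known for its part in stem cell proliferation. Counts per gene measure the amount of mRNA. They do not separate spliced from unspliced Xbp1 and do not show phosphorylation of eIF2 alpha or translation of crc.

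Depth ranged from 12164198 to 22798065 counts per sample. Fold changes are log2FC from edgeR and its quasi-likelihood test (two-sided), with p-values adjusted by Benjamini-Hochberg over all genes tested and a threshold of 0.05. Levels are in CPM, which scales the counts of every sample to the same library size, after TMM normalization. Markers fixed as lists moved with Smurfness in the same libraries: 5 of 5 tested fat body genes fell (median log2FC −1.34), as did 10 of 11 genes of gut digestive enzymes (median −0.89) and 5 of 10 eggshell genes (median −1.86), while 12 of 12 antimicrobial peptide genes rose (median 2.11). Of the cytosolic heat shock genes 6 of 9 rose and 1 fell (median 1.73), and of the haemocyte genes 3 of 4 tested fell (median −1.00). In the germline list 1 of 6 fell (median −0.05) and in the muscle list 1 of 6 rose (median 0.14). Summed CPM of the 6 fat body genes ranged from 16508 to 26494 in 20-day non-Smurfs and from 2503 to 5812 in 20-day Smurfs, and at 40 days from 8835 to 27770 and from 3595 to 20242. The fat body sum rests mainly on the yolk protein genes Yp1, Yp2 and Yp3 (medians of 4950, 2976 and 1308 CPM) and on apolpp (2088 CPM). Of the fat body genes, Fbp1 was at 0 in 18 samples, and of the eggshell genes Cp36 and Cp16 in 3 and Cp19 in 4. Whole flies were measured, so fewer cells of a type and less RNA per cell cannot be told apart, and the part of these markers in the results on the 7 genes was not tested.

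In whole females the chaperone Hsc70-3, the fly homologue of BiP, which binds unfolded proteins in the ER lumen and, in mammals, holds the sensors inactive, had the highest level of the 7 genes. It lies on X from 11801696 to 11807117 on the minus strand (FBgn0001218, annotation BDGP6.54, as for all positions here) and was at 1400 CPM ± 255 (SD, n = 32). Per kilobase of exon its level was 390 CPM. Xbp1 (FBgn0021872, 2R, 21143545 to 21145750, plus strand) followed per kilobase at 205 and Gp93, the fly homologue of the chaperone Grp94 (FBgn0039562, 3R, 27948711 to 27952151, plus strand), at 192.

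The other members were lower. Mean levels per kilobase of exon were 55.8 CPM for crc (FBgn0000370, 2L, 21310866 to 21319527, plus strand) and 49.3 CPM for Ero1L (FBgn0261274, 3L, 4170404 to 4173789, plus strand), the oxidase that keeps disulphide bond formation going. The kinases came last, PEK (FBgn0037327, 3R, 5458563 to 5464753, minus strand) with 41.7 CPM per kilobase and Ire1 (FBgn0261984, 3R, 19853908 to 19861291, minus strand) with 35.4. The spread over all samples was smallest for crc, with a coefficient of variation of 8.85%, and largest for Hsc70-3 with 18.2%. The highest sample of Xbp1 stood 2.23-fold above the lowest, against 1.45-fold for crc.

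Exons of 3 members overlap those of another gene in this annotation. Ire1 shares 496 bases with MICU3 and Gp93 101 bases with CG4951, in both cases on the opposite strand. Exons of crc share 2515 bases with CG46314 on the same strand, and CG46314 had 0 counts over the 32 samples. Whether the counting used the strand of the reads is not given in the sources used here, so values of Ire1 and Gp93 carry that uncertainty. For crc the strand would not separate the 2 genes, and how reads in shared bases were assigned is not given either. If such reads were left out, the level of crc, divided by all its 3423 exon bases, would be too low.

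**Figure D1:**
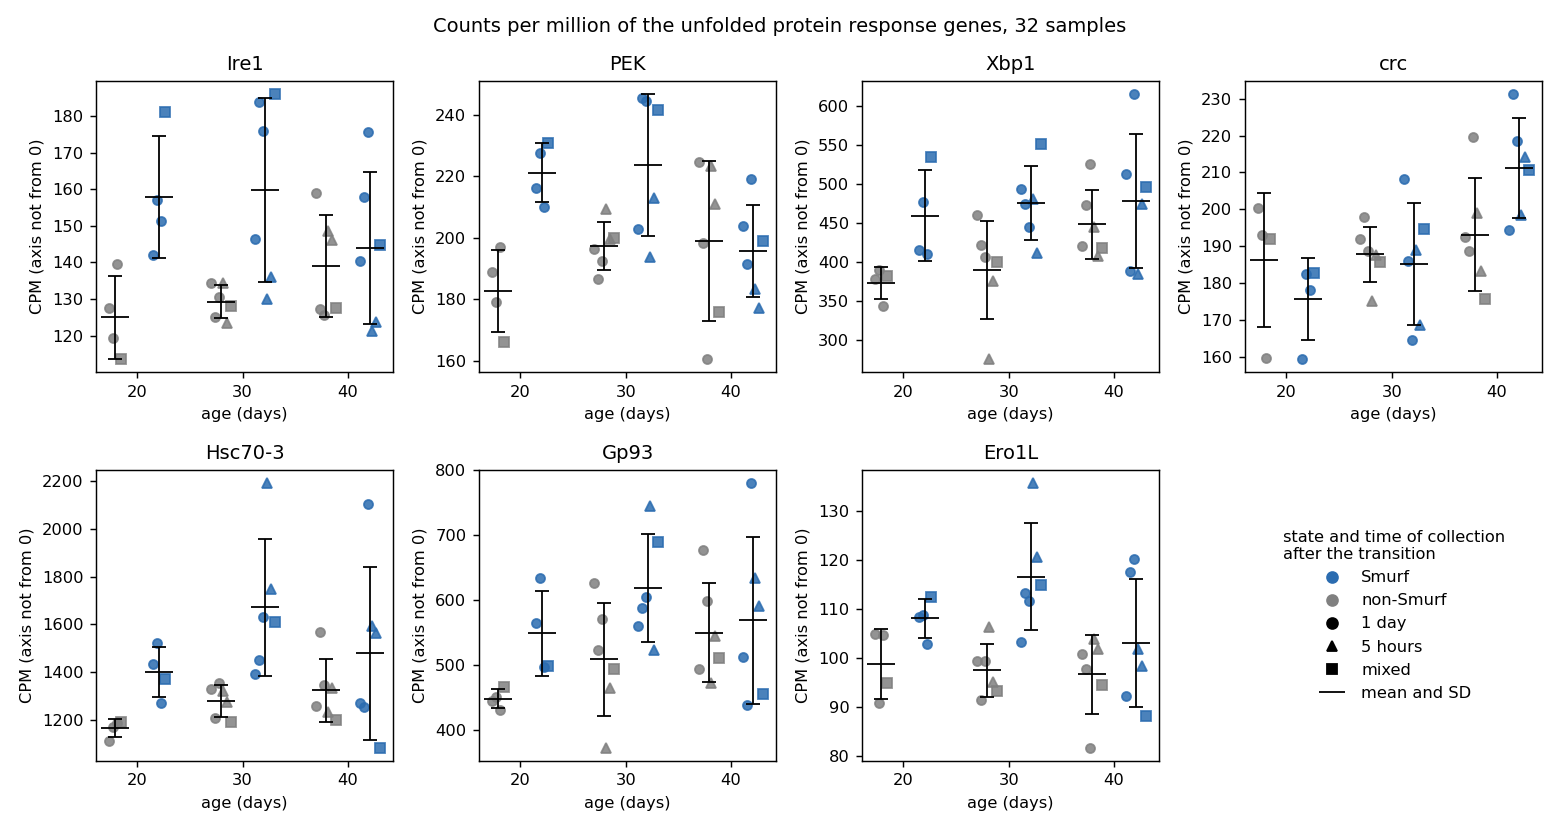
Level of the 7 genes in each of the 32 samples, in CPM after TMM on axes that do not start at 0, by age in days. Blue points are Smurf and grey points non-Smurf samples, symbols give the collection time (circle 1 day, triangle 5 hours, square mixed), and black lines are the mean and SD of each group. At 20 days the Smurf points of Hsc70-3, 1273 to 1524, lie above the non-Smurf points, 1114 to 1193, and at 40 days the points of both groups mix.

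In Smurfs, 4 of the 7 genes rose over all 32 samples: the sensor Ire1, its target Xbp1, the chaperone Hsc70-3 and the oxidase Ero1L. The paper had already reported Xbp1 and Ire1 as higher in these Smurfs. The changes were small, between 0.15 and 0.26 on the log2 scale. None of the 7 fell. Over all genes tested, 22.7% of 10052 were called in either direction, and the median log2FC was −0.01 against 0.18 for the 7 genes. The comparison asks how Smurfs differ from non-Smurfs, whatever their age.

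Among the sensors, Ire1 had a median of 128 CPM in non-Smurfs (range 114 to 159) and 149 CPM in Smurfs (121 to 186, n = 16 each). Of the 16 Smurf samples 13 lay above the non-Smurf mean, and the ranges overlapped. Its log2FC was 0.20 (SE 0.0573, 95% interval 0.09 to 0.32, edgeR adjusted p = 0.0105). PEK, the kinase of eIF2 alpha, had a median of 197 CPM in non-Smurfs (161 to 225) and 212 CPM in Smurfs (177 to 246), and 12 of 16 Smurf samples exceeded the non-Smurf mean. Its log2FC of 0.11 (SE 0.0477) missed the threshold (adjusted p = 0.0818), though it passed when genes needed at least 10 counts in every sample (adjusted p = 0.0372).

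Xbp1, the transcription factor downstream of Ire1, had a median of 407 CPM in non-Smurfs (276 to 525) and 476 CPM in Smurfs (384 to 615), and 14 of 16 Smurfs lay above the non-Smurf mean. Its log2FC was 0.20 (SE 0.0675, 95% interval 0.06 to 0.34, adjusted p = 0.0311). This call was lost when the 40-day Smurf 1d-r (adjusted p = 0.0596), the 30-day Smurf M-10 (0.0536) or the 20-day non-Smurf 1d-c (0.0512) was left out. The transcription factor crc was at a median of 190 CPM in non-Smurfs (160 to 220) and 192 CPM in Smurfs (159 to 231), with a log2FC of 0.01 (SE 0.0474, adjusted p = 0.903). Its 95% interval ran from −0.09 to 0.11, which overlaps that of Xbp1, the difference between the genes was not tested, and 8 of 16 Smurfs lay above the non-Smurf mean.

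The mRNAs of the lumenal proteins were higher in most Smurfs. Hsc70-3 had a median of 1246 CPM in non-Smurfs (1114 to 1570) and 1487 CPM in Smurfs (1086 to 2191), and 14 of 16 Smurfs lay above the non-Smurf mean. With a log2FC of 0.26 (SE 0.0725, 95% interval 0.11 to 0.40, adjusted p = 0.0106) it had the largest change of the 7. Ero1L had a median of 98.6 CPM in non-Smurfs (81.8 to 106) and 110 CPM in Smurfs (88.3 to 136), again with 14 of 16 above the non-Smurf mean. Its log2FC was 0.15 (SE 0.0446, 95% interval 0.06 to 0.24, adjusted p = 0.0143). Gp93 went from a median of 494 CPM (373 to 678) to 577 CPM (439 to 780). Its log2FC of 0.18 (SE 0.0786) missed the threshold (adjusted p = 0.0967), and 12 of 16 Smurf samples exceeded the non-Smurf mean. Ire1, Hsc70-3 and Ero1L were called with any 1 of the 32 samples left out, but the call of Ire1 was lost without the 6 mixed samples (adjusted p = 0.128) and that of Hsc70-3 without the 8 samples of 5 hours (adjusted p = 0.0846).

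**Figure D2:**
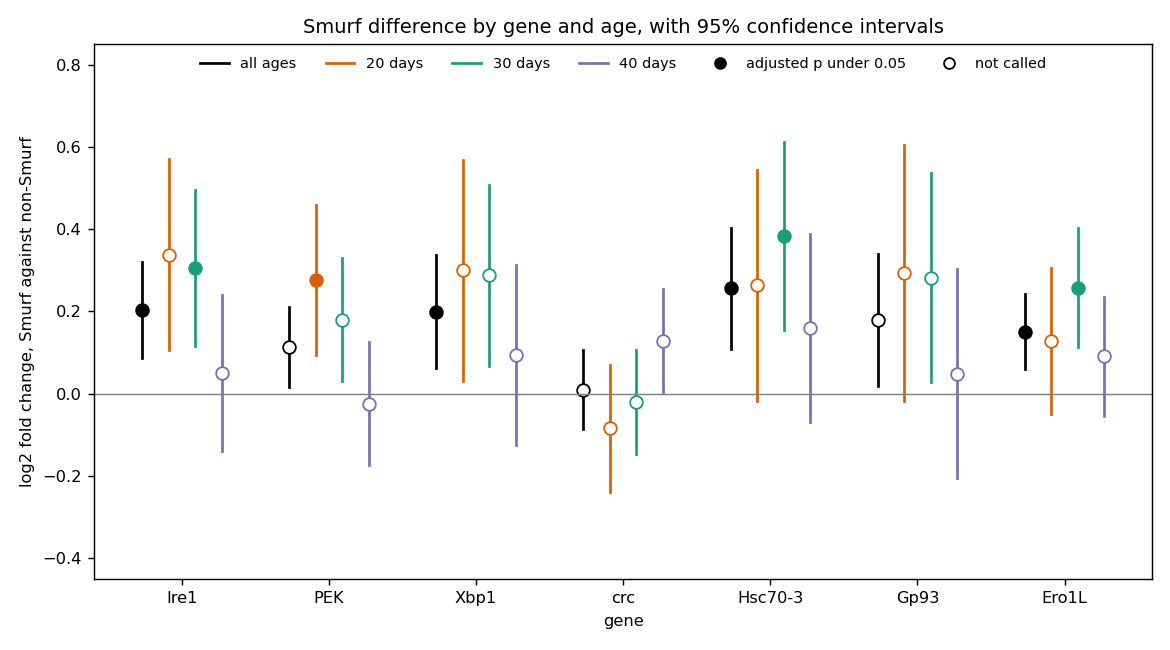
log2FC of Smurfs against non-Smurfs for each of the 7 genes, over all samples and at each age; points are edgeR estimates, bars are 95% intervals and filled points have an adjusted p under 0.05. Over all samples Ire1, Xbp1, Hsc70-3 and Ero1L are filled, at 20 days PEK, at 30 days Ire1, Hsc70-3 and Ero1L, and at 40 days none.

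At 20 days the Smurf samples of Xbp1, Ire1, PEK, Hsc70-3 and Gp93 all lay above all the non-Smurf samples. That was 5 of 7 genes, against 9.66% of 10529 genes tested. By edgeR's test 1 of the 7, PEK, was called, against 11.0% of all genes in either direction.

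The level of PEK at 20 days was 166, 179, 189 and 197 CPM in the non-Smurf samples and 210, 216, 228 and 231 CPM in the Smurf samples. The groups were separate, with a log2FC of 0.28 (SE 0.0892, adjusted p = 0.0433). The call was lost when any of 5 of the 8 samples of that age was left out, the non-Smurfs M-1 (0.106) and 1d-b (0.0716) and the Smurfs M-4 (0.122), 1d-d (0.0715) and 1d-e (0.0966). It was also lost with RLE size factors (0.0501) and without a filter on low counts (0.0755). Ire1 was at 114, 119, 128 and 140 CPM in non-Smurfs and at 142, 151, 157 and 181 CPM in Smurfs. The mixed Smurf was the highest and the mixed non-Smurf the lowest of these, and the log2FC was 0.34 (SE 0.113, adjusted p = 0.0523).

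Xbp1 at 20 days was at 343, 378, 381 and 389 CPM in non-Smurfs and at 410, 415, 477 and 534 CPM in Smurfs (log2FC 0.30, SE 0.131, adjusted p = 0.146). Hsc70-3 was at 1114, 1174, 1190 and 1193 CPM in non-Smurfs and at 1273, 1374, 1433 and 1524 CPM in Smurfs (log2FC 0.26, SE 0.137, adjusted p = 0.236). Both genes had narrow non-Smurf groups and wider Smurf groups. Gp93 was at 431, 445, 450 and 467 CPM in non-Smurfs and at 498, 499, 565 and 634 CPM in Smurfs (log2FC 0.29, SE 0.152, adjusted p = 0.236).

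The remaining members overlapped at that age. Ero1L was at 90.9, 94.8, 105 and 105 CPM in non-Smurfs and at 103, 108, 109 and 112 CPM in Smurfs, and 3 of the 4 Smurfs were above every non-Smurf. Its log2FC was 0.13 (SE 0.0866, adjusted p = 0.388). crc was at 160, 192, 193 and 200 CPM in non-Smurfs and at 159, 178, 182 and 183 CPM in Smurfs, with a log2FC of −0.08 (SE 0.0755, adjusted p = 0.546).

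At 30 days Ire1, Hsc70-3 and Ero1L rose, so that 3 of 7 were called against 14.8% of 10529 genes. Without the mixed samples none of the 3 was called, with adjusted p of 0.134 for Ire1, 0.0733 for Hsc70-3 and 0.0591 for Ero1L. Hsc70-3 ranged from 1193 to 1355 CPM in the 6 non-Smurfs (median 1300) and from 1393 to 2191 CPM in the 6 Smurfs (median 1622), and was the 1 member whose groups did not overlap, against 4.06% of all genes tested with every Smurf above every non-Smurf. Its log2FC was 0.38 (SE 0.112, adjusted p = 0.0204). The highest Smurf, 5h-c3 at 2191 CPM, decided the call, which was lost without it (log2FC 0.29, adjusted p = 0.0728) and without the non-Smurf M-7 (0.35, adjusted p = 0.0529).

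Ero1L at 30 days ranged from 91.4 to 106 CPM in non-Smurfs (median 97.2) and from 103 to 136 CPM in Smurfs (median 114), with a log2FC of 0.26 (SE 0.0706, adjusted p = 0.0137). Ire1 ranged from 123 to 134 CPM in non-Smurfs (median 129) and from 130 to 186 CPM in Smurfs (median 161), with a log2FC of 0.31 (SE 0.0925, adjusted p = 0.0249). Its Smurf values were split by collection: the 5-hour samples, at 130 and 136 CPM, lay next to the non-Smurfs. The call of Ire1 was lost without the Smurfs M-10 (adjusted p = 0.0805), 1d-k (0.065) or 1d-l (0.0602), or without the non-Smurfs 5h-c2 (0.0521) or 1d-h (0.0508). The other 4 members were not called, with log2FC of 0.29 for Xbp1 (adjusted p = 0.0682), 0.28 for Gp93 (0.128), 0.18 for PEK (0.0939) and −0.02 for crc (0.878).

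At 40 days no member was called by edgeR, against 0.0475% of 10529 genes, and DESeq2 called 0 as well. At an unadjusted p under 0.05, 1 of 7 passed, crc with a log2FC of 0.13 (SE 0.0616, adjusted p = 0.456), against 10.7% of all genes. No member had every Smurf above every non-Smurf (0.294% of all genes). Hsc70-3 ranged from 1202 to 1570 CPM in non-Smurfs (median 1298) and from 1086 to 2101 CPM in Smurfs (median 1419), so that its Smurfs were both the lowest and the highest samples. The extremes were the mixed Smurf M-16 at 1086 CPM and the Smurf 1d-r at 2101 CPM, and 1d-r also held the highest 40-day Smurf value of Xbp1, Ire1, PEK, Gp93 and Ero1L. Its log2FC was 0.16 (SE 0.112, adjusted p = 0.647), and Xbp1, Ire1, PEK, Gp93 and Ero1L lay between −0.02 for PEK and 0.09 for Xbp1 and Ero1L.

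The differences between these ages were tested as interactions of Smurfness with age. Between 30 and 20 days 0 of the 7 members were called, and 0% of all genes. The count at an unadjusted p under 0.05 was again 0 of 7, against 2.28% of all genes, and DESeq2 called 0. Between 40 and 20 days edgeR called 0 (0.256% of all genes) and DESeq2 0. At an unadjusted p under 0.05 there were 2, against 12.6% of all genes. For PEK the effect of Smurfness was 0.30 lower at 40 than at 20 days on the log2 scale (interaction log2FC −0.30, SE 0.115, adjusted p = 0.258), and for crc it was higher by 0.21 (SE 0.0974, adjusted p = 0.357). The smaller changes at 40 days are thus not shown to differ from those at 20 days.

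Age within each condition moved 1 member. In Smurfs crc was higher at 40 than at 20 days, from 159, 178, 182 and 183 CPM to a range of 194 to 231 CPM (median 212, n = 6). The groups did not overlap, and the share of all genes without such overlap was not counted. Its log2FC was 0.28 (SE 0.0666, adjusted p = 0.0135), and 1 of 7 called stood against 17.6% of 10353 genes. The call was lost without the 20-day Smurf 1d-d, which was the lowest (log2FC 0.24, adjusted p = 0.0621). As no 5-hour sample was taken at 20 days, 2 of the 6 older Smurf samples had a collection time that the younger group lacks. PEK, at 210 to 231 CPM in Smurfs at 20 days and 177 to 219 CPM at 40 days, had a log2FC of −0.16 (SE 0.0716, adjusted p = 0.12).

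In non-Smurfs no member was called between 40 and 20 days by edgeR or DESeq2, against 1.89% of 10260 genes in edgeR. At an unadjusted p under 0.05, 4 of 7 passed, against 16.4% of all genes, each with a higher level at 40 days. These were Xbp1 (log2FC 0.27), Gp93 (0.30), Hsc70-3 (0.19) and Ire1 (0.16), with adjusted p between 0.193 and 0.274. Xbp1 in non-Smurfs was at 343 to 389 CPM at 20 days and at 407 to 525 CPM at 40 days. Hsc70-3 was at 1114 to 1193 CPM and at 1202 to 1570 CPM, and Gp93 at 431 to 467 CPM and at 472 to 678 CPM. The ranges of these genes did not overlap, but the share of all genes without such overlap was not counted.

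Between 30 and 20 days 0 members were called by edgeR or DESeq2 in Smurfs (0.00966% of all genes) and 0 in non-Smurfs (0.00975%). Without adjustment, 0 passed a p of 0.05 in either, against 6.46% of all genes in Smurfs and 7.76% in non-Smurfs. The largest of these differences was that of Hsc70-3 in Smurfs, with a log2FC of 0.26 (SE 0.16, adjusted p = 0.817).

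Ordered by its group means, Hsc70-3 ran from 1168 CPM in 20-day non-Smurfs through 1282 in 30-day and 1324 in 40-day non-Smurfs to 1401 in 20-day, 1479 in 40-day and 1671 in 30-day Smurfs. The ranges of each pair of neighbours in that order overlapped. For Ire1 the order was the same except that 20-day Smurfs, at 158 CPM, stood above 40-day Smurfs, at 144 CPM, and its 40-day non-Smurfs were at 139 CPM. For crc it was another order, from 176 CPM in 20-day Smurfs to 211 CPM in 40-day Smurfs, with the other 4 groups between 185 and 193 CPM.

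Smurfs of the 5-hour and 1-day collections were compared at 30 and 40 days, where both exist, to ask whether levels differ between them. The time since turning blue is known only up to these limits. Among the sensors, Ire1 was at 121, 124, 130 and 136 CPM in the 4 Smurf samples of 5 hours and between 140 and 184 CPM in the 6 of 1 day. These did not overlap, and the share of all genes without such overlap was not counted. Its log2FC of 1 day against 5 hours was 0.35 (SE 0.0828), with an adjusted p of 0.0955 in edgeR and 0.0122 in DESeq2. Of 20 edgeR fits without 1 sample, 1 called it, that without the 40-day Smurf 1d-p (adjusted p = 0.0322). Without the 30-day Smurf 1d-k the adjusted p rose to 0.423. PEK was at 177, 183, 194 and 213 CPM at 5 hours and between 192 and 246 CPM at 1 day, with a log2FC of 0.18 (SE 0.0802, adjusted p = 0.47). Of the 7 members 0 were called by edgeR and 1 by DESeq2, against 0.182% of 10454 genes in edgeR, and 2 passed an unadjusted p under 0.05, against 9.51% of all genes.

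The chaperones did not share that order. Hsc70-3 was at 1564, 1594, 1748 and 2191 CPM in 5-hour Smurfs and between 1257 and 2101 CPM in 1-day Smurfs, of which 4 of 6 lay below every 5-hour sample. Its log2FC of 1 day against 5 hours was −0.23 (SE 0.127, adjusted p = 0.655), and that of Gp93 was −0.10 (SE 0.139, adjusted p = 0.913). Ero1L, at 98.4 to 136 CPM and 92.3 to 120 CPM, had a log2FC of −0.05 (SE 0.0844, adjusted p = 0.931).

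In non-Smurfs of the same collections 0 members were called by edgeR or DESeq2 and 0% of all genes by edgeR. At an unadjusted p under 0.05, 2 of 7 passed, against 22.3% of all genes: Xbp1 (log2FC 0.26, SE 0.119, adjusted p = 0.204) and Gp93 (0.32, SE 0.14, adjusted p = 0.191). The lowest non-Smurf of both genes was the 5-hour sample 5h-c1 of 30 days, at 276 CPM for Xbp1 and 373 CPM for Gp93. Ire1 had a log2FC of −0.05 (SE 0.0818, adjusted p = 0.714) there.

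The difference between the Smurf effects at 1 day and at 5 hours was tested as an interaction, with age as a factor. It called 0 members and 0% of all genes in edgeR, and 0 members in DESeq2. Before adjustment, 3 members passed a p of 0.05, against 10.6% of all genes, and they did not have the same sign. For Ire1 the Smurf effect was larger at 1 day by 0.40 (SE 0.116, adjusted p = 0.463) and for PEK by 0.32 (SE 0.113, adjusted p = 0.463), while for Gp93 the interaction was −0.43 (SE 0.196, adjusted p = 0.463). Hsc70-3 had an interaction of −0.28 (SE 0.18, adjusted p = 0.505).

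**Figure D3:**
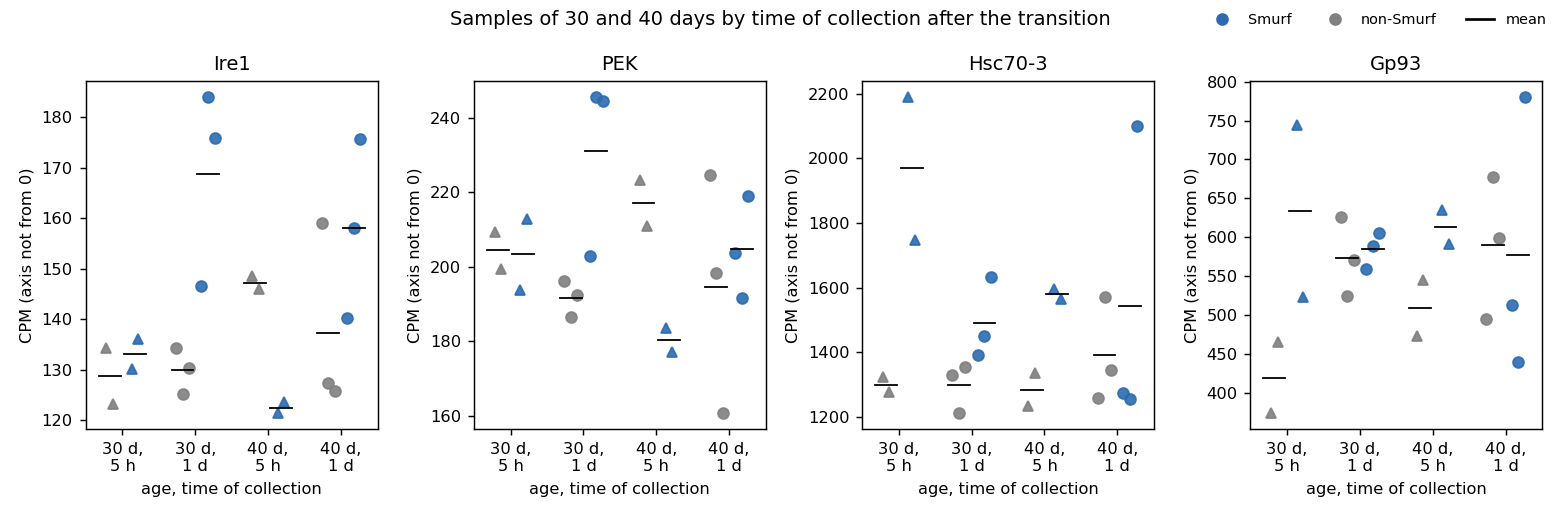
Level of Ire1, PEK, Hsc70-3 and Gp93 in CPM, on axes that do not start at 0, in Smurfs (blue) and non-Smurfs (grey) of 30 and 40 days taken at 5 hours (triangles) or at 1 day (circles); points are samples and lines are means. Ire1 lies at 121 to 136 CPM in 5-hour Smurfs and at 140 to 184 CPM in 1-day Smurfs, while 5-hour Smurfs of Hsc70-3 reach 2191 CPM.

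Smurfs and non-Smurfs of 1 collection time gave fewer calls. Among 1-day samples (9 Smurfs, 9 non-Smurfs) Ire1 rose with a log2FC of 0.26 (adjusted p = 0.0124) and PEK with 0.18 (adjusted p = 0.0477), and Hsc70-3, at 0.20, was not called (adjusted p = 0.179). Among the 8 samples of 5 hours no member was called. There Hsc70-3 had a log2FC of 0.46 (adjusted p = 0.0974) and Gp93 0.44 (adjusted p = 0.177), while Ire1 and PEK had negative values, −0.10 and −0.13. In 40-day samples of 5 hours Ire1 was at 146 and 149 CPM in non-Smurfs and at 121 and 124 CPM in Smurfs, and PEK at 211 and 223 CPM in non-Smurfs and at 177 and 183 CPM in Smurfs. With the 5-hour samples left out, Xbp1, Ire1, PEK and Ero1L were called and Hsc70-3 was not (log2FC 0.19, adjusted p = 0.0846). With the mixed samples left out, Hsc70-3 (0.28, adjusted p = 0.0241) and Ero1L (0.15, adjusted p = 0.0405) were called and Ire1 and Xbp1 were not (0.15 and 0.16, adjusted p = 0.128 and 0.213).

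The members were also compared by their variation over samples. The sensors Ire1 and PEK moved together, with a Pearson correlation of log2 CPM of 0.86 over the 32 samples and 0.82 after the mean of each of the 6 groups had been taken out. Hsc70-3 varied with Gp93 (0.80, and 0.73 within groups) and Xbp1 with Gp93 (0.71, and 0.60). With Ero1L the correlation of Hsc70-3 was 0.69 over all samples, 0.75 in the 16 Smurfs and −0.04 in the 16 non-Smurfs. Ero1L also varied with PEK (0.56, and 0.36 within groups) and Ire1 (0.54, and 0.30). Ire1 and Hsc70-3 had a correlation of 0.29 over all samples and of −0.14 within groups, and Xbp1 and Hsc70-3 of 0.45 and 0.19. The values of both genes of a pair come from the same libraries and share their depth and cell composition, so these are descriptions and no test was made.

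Of 8466 genes whose mean log2 CPM was 2 or more, those most like Hsc70-3 over the 32 samples were Manf, a small secreted protein of the ER (r = 0.95), the disulphide isomerase CaBP1 (0.94), the co-chaperone P58IPK (0.93), Grp170, an Hsp70-related protein of the ER lumen (0.92), and CG2004 (0.91). The same 5 genes led after the group means had been taken out, with r between 0.85 and 0.93. Over the 32 samples Gp93 was the gene of rank 23 and Ero1L that of rank 166 by this measure. The other members ranked lower: Xbp1 996, PEK 1654, Ire1 1702 and crc 3715. Manf had a median of 79.3 CPM in 20-day non-Smurfs (74.7 to 85.5) and 93.0 CPM in 20-day Smurfs (88.9 to 98.7), and at 30 days 85.9 CPM (82.4 to 97.5) and 112 CPM (103 to 145). The genes most like Xbp1 were others: Pis, the phosphatidylinositol synthase (0.92), Rilpl (0.89), Mob2 (0.89), CG12268 (0.89) and flap (0.88). In likeness to Xbp1, Gp93 ranked 334 over the 32 samples and 885 within groups. Over the 32 samples the other members ranked between 1461 (Ire1) and 3179 (Ero1L).

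**Figure D4:**
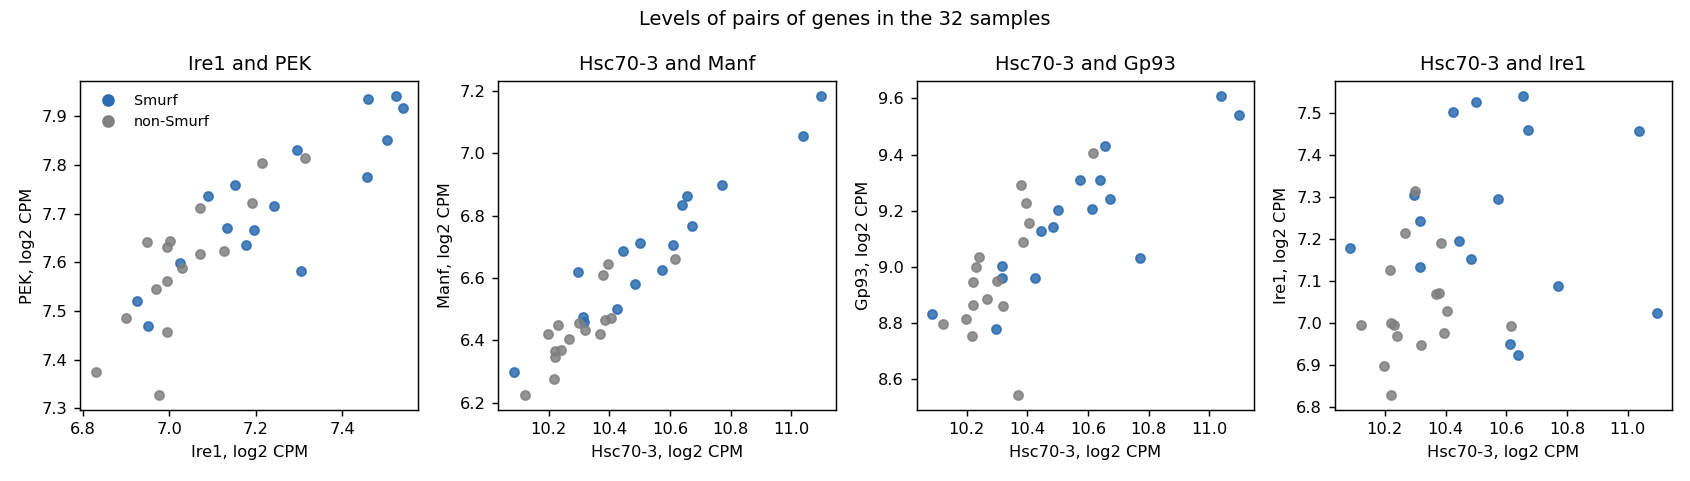
log2 CPM of Ire1 against PEK, and of Hsc70-3 against Manf, Gp93 and Ire1, in the 32 samples; each point is a Smurf (blue) or non-Smurf (grey) sample. The points of Hsc70-3 and Manf (r = 0.95), of Ire1 and PEK (r = 0.86) and of Hsc70-3 and Gp93 (r = 0.80) rise together, and those of Hsc70-3 and Ire1 scatter (r = 0.29).

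The rest of the pathway was read from 7 lists, in which 63 further genes were matched to the count table and 61 were tested. TER94 and TRAPalpha of these lists were not matched and are not analysed here. In Smurfs 11 of the 61 rose and 5 fell, 16 called against the 22.7% of all genes, and their median log2FC of −0.01 was that of all genes.

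Among 5 genes reported as targets of ATF4, 3 rose in Smurfs and none fell, with a list median of 0.75, against 22.7% of all genes called. The list was chosen with earlier results known, and the paper had reported Ldh and Thor as higher in these Smurfs. It names Thor as a target of foxo, and the part of ATF4 in these changes was not tested. The list is thus a description and no test of ATF4. The genes that rose were Nmdmc, a folate enzyme of mitochondria (log2FC 1.08, SE 0.167, adjusted p = 4.47e-05), lactate dehydrogenase, Ldh (0.99, SE 0.206, adjusted p = 0.000871), and Thor, the inhibitor of cap-dependent translation 4E-BP (0.75, SE 0.111, adjusted p = 2.97e-05). Nmdmc had a median of 25.2 CPM in 20-day non-Smurfs (22.9 to 28.1) and 68.5 CPM in 20-day Smurfs (64.7 to 82.4), with a log2FC at that age of 1.48 (adjusted p = 0.00203). Its groups stayed apart at 30 days, with non-Smurfs at 26.2 to 53.7 CPM and Smurfs at 57.8 to 133 CPM. The asparagine synthetase AsnS (log2FC −0.11, adjusted p = 0.11) and the serine hydroxymethyltransferase Shmt (−0.19, adjusted p = 0.122) of the same list did not pass, and crc itself stood at 0.01.

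Thor had a median of 155 CPM in 20-day non-Smurfs (132 to 168) and 262 CPM in 20-day Smurfs (242 to 314), and at 30 days 161 CPM (128 to 174) and 298 CPM (246 to 399). Smurfs and non-Smurfs were separate at both ages. Ldh spread more, from 40.6 to 151 CPM in 20-day Smurfs against 24.9 to 38.8 CPM in non-Smurfs. At 40 days the log2FC was 0.80 for Nmdmc (adjusted p = 0.167), 0.51 for Ldh (0.597) and 0.50 for Thor (0.228). Nmdmc also rose with age in non-Smurfs, by 0.98 from 20 to 40 days (adjusted p = 0.0471), a call lost without any 1 of 11 of the 16 non-Smurf samples (adjusted p up to 0.148).

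Of 12 tested chaperones and lectins 3 rose and 1 fell, against 22.7% of all genes called in either direction. Sil1, the exchange factor that resets Hsc70-3, rose by 0.50 (SE 0.0966, adjusted p = 0.000409), P58IPK by 0.28 (adjusted p = 0.0043) and Manf by 0.26 (adjusted p = 0.00365). GCS2beta, a subunit of the glucosidase that trims N-glycans, fell by 0.11 (adjusted p = 0.0165), a call lost with at least 10 counts required in every sample (0.074). Sil1 was at 39.2 to 48.6 CPM in 20-day non-Smurfs and at 59.8 to 65.2 CPM in 20-day Smurfs, and at 44.0 to 55.4 and 58.7 to 119 CPM at 30 days, so that the groups were separate at both ages.

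In ER-associated degradation 3 of 12 genes rose and 0 fell, against 22.7% of all genes called in either direction. Of all 10052 genes tested, 1148 rose. Herp, a membrane protein of the degradation complex, rose by 0.28 (SE 0.046, adjusted p = 8.08e-05), with all Smurfs at 96.2 to 140 CPM against 77.6 to 102 CPM in non-Smurfs. At 20 days its log2FC was 0.36 (adjusted p = 0.00898), at 30 days 0.37 (adjusted p = 0.00127) and at 40 days 0.18 (adjusted p = 0.318). The calls of Hrd3 (0.06, adjusted p = 0.0386) and the derlin Der-2 (0.09, adjusted p = 0.0497) were lost in many of the 32 fits without 1 sample, in which they held in 17 and 11, and without a filter on low counts (0.0868 and 0.0847).

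Among 11 isomerases CaBP1 rose by 0.36 (adjusted p = 0.00822), while prtp (log2FC −0.09, adjusted p = 0.026) and CG5554 (−0.17, adjusted p = 0.0474) fell, a share near the 22.7% of all genes called. With at least 10 counts required in every sample prtp (0.114) and CG5554 (0.105) were lost, and CG5554 was also lost with RLE size factors (0.0656), DESeq2 (0.06) and no filter (0.0602). In the oligosaccharyltransferase 1 of 7 subunits fell, the catalytic Stt3A by 0.10 (adjusted p = 0.00451), and in the translocon list 1 of 10, SsRbeta by 0.11 (adjusted p = 0.0446). Both shares lie below the 22.7% of all genes called in either direction. The calls of CG5554 and SsRbeta held in 12 of the 32 fits without 1 sample, and that of SsRbeta was lost with at least 10 counts (0.141), RLE (0.066), DESeq2 (0.0549) and no filter (0.0545). Of the other sensors and eIF2 alpha genes PPP1R15, which brings the phosphatase to eIF2 alpha, rose by 0.06 (adjusted p = 0.045, called in 13 of 32 such fits and lost without a filter, 0.0974). Atf6 (0.04, adjusted p = 0.675), the eIF2 alpha kinase Gcn2 (0.01, adjusted p = 0.842) and eIF2alpha itself (−0.10, adjusted p = 0.116) did not pass.

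By age, 5 of the 61 were called at 20 days, against 11.0% of all genes in either direction, and 11 at 30 days, against 14.8%. All 11 at 30 days rose, and of all 10529 genes tested 866 rose at that age. Without the mixed samples 1 and 7 were called. At 20 days Herp, Thor, Nmdmc and Ldh rose and wbl, a homologue of ERp29, fell (log2FC −1.31, adjusted p = 0.029). The call of Ldh there was lost without the mixed Smurf M-4 (1.11, adjusted p = 0.0907), and that of wbl without any 1 of 5 samples (adjusted p up to 0.114). At 30 days Sil1 rose by 0.71, CaBP1 by 0.57, Manf by 0.41, P58IPK by 0.39 and Cnx99A, a calnexin, by 0.14, in degradation Herp rose with Der-1 (0.20) and Hrd3 (0.12), and Thor (1.02), Nmdmc (1.23) and Ldh (1.04) rose as well. Leaving out 1 sample could end the calls at 30 days of Ldh (adjusted p up to 0.0944), Der-1 (up to 0.092) and Cnx99A (up to 0.0584). From 20 to 40 days 3 of the 61 rose in Smurfs, a share below the 17.6% of all genes: wbl by 1.08 (adjusted p = 0.0448), the prolyl isomerase Fkbp14 by 0.51 and sordd1 by 0.13, each lost without 1 of several samples.

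**Figure D5:**
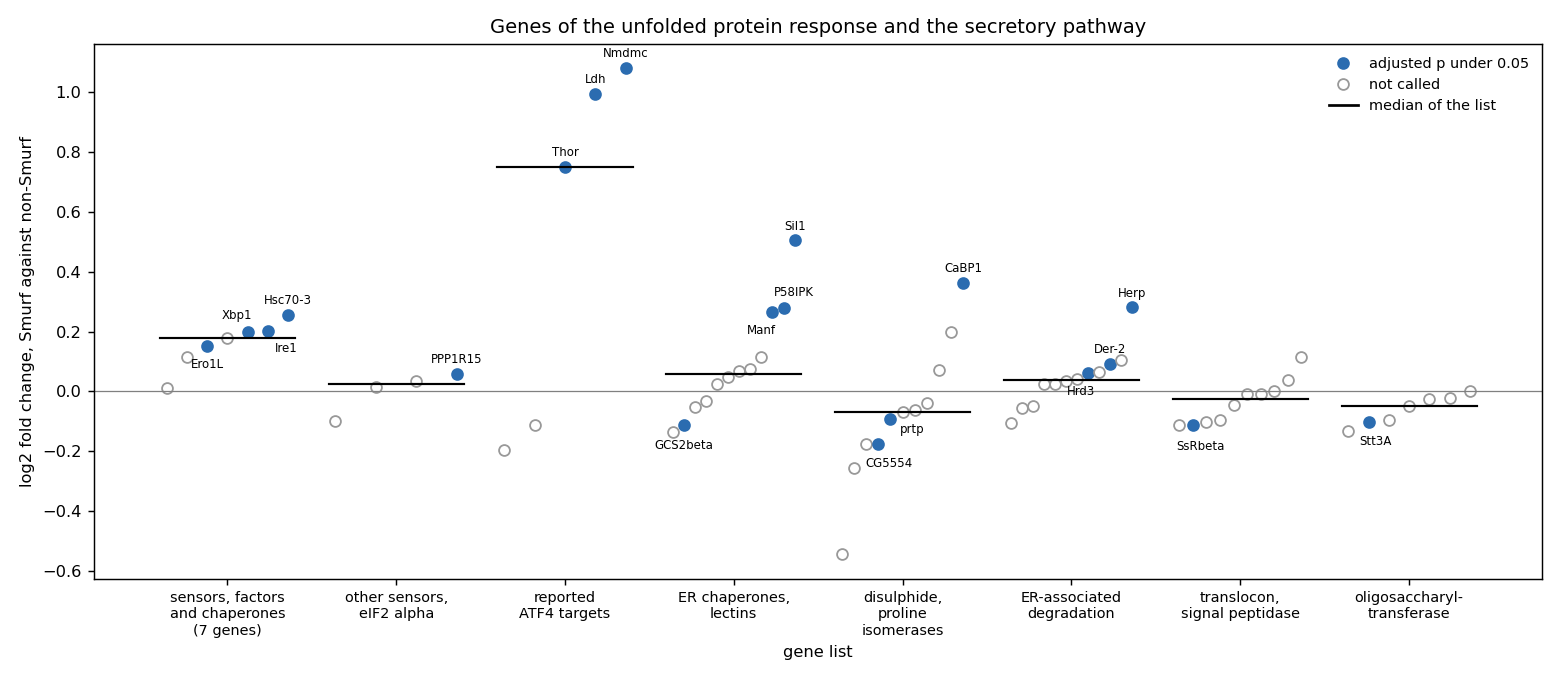
log2FC of Smurfs against non-Smurfs over the 32 samples for the 7 members and the 61 other pathway genes tested, by list; each point is a gene, filled where the adjusted p is under 0.05, and lines are list medians. The highest filled points are the reported ATF4 targets Nmdmc (1.08), Ldh (0.99) and Thor (0.75), followed by Sil1 (0.50).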

How the data were processed

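The authors prepared stranded mRNA libraries, aligned the reads with Hisat2 and counted them with featureCounts; the strand and multi-mapping settings are not given in the sources used here. The deposited values are whole-number counts per gene and sample, not normalized. Groups, ages and collection times came from the labels, each column was matched to a sample by name, and 0 columns were left unused. Replicates differed by more than sampling noise in each of 72 pairs (chi-square per degree of freedom 6.79 to 117), so each sample counted as 1 replicate.

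The 7 members and all lists were chosen with earlier results of these data known. Counts were tested with edgeR 4.0.16 in R 4.3.3 (TMM, filterByExpr, glmQLFit, glmQLFTest) over all genes. Smurfs and non-Smurfs were compared over 32 samples. Ages were compared in a model of 6 groups, age within each condition in its 16 samples, and collection times in the 20 samples of 30 and 40 days taken at 5 hours or 1 day, with age as a factor. The SE is the log2FC divided by the square root of F. Per-sample log2 CPM used a prior count of 2. Members were named in every comparison, other pathway genes where the adjusted p was under 0.05 (at most 5 per list and direction), eIF2 alpha genes always, and the 5 genes most like Hsc70-3 and Xbp1. AsnS and Shmt, and values at ages other than those called, were added after their values were seen.

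Gene names, positions and exon lengths are those of the BDGP6.54 annotation, which held 17599 of the 17737 identifiers. Alternatives were RLE size factors, DESeq2 1.42.0, no filter, at least 10 counts in every sample, subsets by collection time, terms for age or collection event, and leaving out each sample in turn. The steps were tested on simulated data. Python 3.11.15 with pandas 2.3.3, numpy 2.4.6 and matplotlib 3.10.9 made the tables and figures.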

Additional observations from a re-analysis of the deposited data

Results flagged for a closer look

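Among strata with at least 2 samples of each condition, 3 members had opposite directions: all Smurfs of one age and collection time lay above the non-Smurfs taken with them, and in another stratum all lay below. These differences in direction were not tested, and the share of all genes with such opposite directions was not counted. The 5-hour strata hold 2 Smurf and 2 non-Smurf samples each, so groups there separate easily. The values are log2 ratios of the mean CPM of Smurfs to that of non-Smurfs. Ire1 was above in the 1-day samples of 20 days (0.22) and of 30 days (0.38) and below in the 5-hour samples of 40 days (−0.27). PEK was above in the 1-day samples of 20 days (0.21) and of 30 days (0.27) and below in the 5-hour samples of 40 days (−0.27). Ero1L was above in the 1-day samples (0.18) and the 5-hour samples (0.35) of 30 days and below in the 5-hour samples of 40 days (−0.039). No sample stood apart from its group in any of the 42 pairs of member and group, where chance marks about 1 in 20.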

How the results depend on the processing

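No paired analysis was possible because groups share no replicate numbers in the labels. A block by collection event was fitted in its place, and with it, or with age as a factor, the same 4 members were called over all samples. The causes of the changes below were not tested.

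Against 4 of 7 members called in Smurfs over all samples, 2 were called without the mixed samples, Hsc70-3 and Ero1L. In 1-day samples only, 2 were called, Ire1 and PEK, of which PEK was not among the 4. In 5-hour samples only and in mixed samples only, 0 were called. These subsets hold fewer samples. In the 5-hour samples Ire1 turned to −0.10 and PEK to −0.13, and crc turned to −0.0030 without the mixed samples and −0.017 in 1-day samples. Of the 16 other pathway genes, GCS2beta, prtp, CG5554 and SsRbeta were lost with at least 10 counts in every sample, and PPP1R15, CG5554, Hrd3, Der-2 and SsRbeta without a filter. Of the same 16, 8, 6, 0 and 0 were called in the subsets given above for the members, in that order, and in 5-hour samples GCS2beta turned to 0.031 and SsRbeta to 0.11. At 20 days the count of 1 member became 0 with RLE size factors, without a filter and without the mixed samples, 2 with at least 10 counts or DESeq2, and 5 in samples of that age only, and that of 5 pathway genes became 1 without the mixed samples and 11 in that age only. At 30 days 3 members became 0 and 11 pathway genes 7 without the mixed samples. From 20 to 40 days the 3 pathway genes of Smurfs became 1 without a filter, 7 with DESeq2 or the model of 6 groups and 0 without the mixed samples, and the 1 of non-Smurfs became 2 with DESeq2 and 0 without the mixed samples or in the model of 6 groups. DESeq2 called 1 member, Ire1, between 5 hours and 1 day in Smurfs. Small values that changed sign without the mixed samples were the interactions of age for Xbp1 (0.0020), Ire1 (0.015) and Ero1L (0.030) and the change of Ero1L in Smurfs from 20 to 40 days (0.0075), and with DESeq2 the interaction of collection for crc (0.0033).

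With each sample left out in turn, the members called ranged from 0 to 2 at 20 days, from 0 to 1 between 20 and 40 days in Smurfs and from 0 to 1 between collection times in Smurfs. The other pathway genes called ranged from 3 to 6 at 20 days, from 0 to 8 in Smurfs from 20 to 40 days and from 0 to 1 in non-Smurfs. Members close to 0 changed sign. In Smurfs against non-Smurfs crc ran from −0.011 to 0.028, at 30 days from −0.057 to 0.012, and at 40 days Ire1 from −0.014 to 0.093, PEK from −0.073 to 0.014 and Gp93 from −0.062 to 0.12. In the interaction of 30 with 20 days Xbp1 ran from −0.095 to 0.068, Ire1 from −0.090 to 0.040 and Gp93 from −0.086 to 0.066, and in that of 40 with 20 days Ero1L from −0.086 to 0.00047. In Smurfs Ire1 ran from −0.029 to 0.091 and PEK from −0.013 to 0.056 at 30 against 20 days, and Xbp1 from −0.0049 to 0.15, Hsc70-3 from −0.025 to 0.17 and Gp93 from −0.037 to 0.14 at 40 against 20 days. In non-Smurfs crc ran from −0.051 to 0.058 and Ero1L from −0.045 to 0.020 at 30 days, and from −0.0054 to 0.093 and −0.062 to 0.015 at 40 days. Between collection times Gp93 ran from −0.21 to 0.0097 and Ero1L from −0.11 to 0.027 in Smurfs, Hsc70-3 from −0.0013 to 0.083 in non-Smurfs, and in their interaction crc from −0.062 to 0.024 and Ero1L from −0.0018 to 0.13.

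The lowest count of a member in a sample was 1124. The 4 samples per group at 20 days and the 2 per stratum at 5 hours are few, and collection time is partly confounded with age.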
